A study of Mus musculus with 4 samples.

Results

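The genes described here encode the core machinery of macroautophagy, and 38 were chosen by symbol, among 50600 genes in the deposited tables (21764 of them protein-coding). All 38 were found in each of the 4 libraries. They fall into 8 roles: the ULK1 initiation complex (5 genes), the class III PI3-kinase complexes (6), lipid supply and PI3P reading (6), the conjugation machinery (7), the ATG4 proteases (4), the ATG8 proteins (5), cargo receptors (3) and transcription factors (2).

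The series holds 1 group, T helper 17 (Th17) cells, a class of CD4 T cell that makes IL-17A and IL-17F. They are primary cells of the C57BL/6NJ mouse strain, differentiated from CD4 T cells, with 4 libraries numbered as biological replicates. Age and developmental stage are labelled unknown, sex was not collected, all libraries carry 1 donor entry, and no allele or agent is given. There is no second condition, so a level can be set against a fixed level, against other genes of the same library and against the spread between libraries, but not against another state of the cell.

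Macroautophagy encloses cytoplasm in a double membrane and delivers it to the lysosome. The ULK1 kinase complex starts the process, a lipid kinase complex around VPS34 marks the membrane with PI3P, and ATG9 and ATG2 proteins bring lipid. ATG12, joined to ATG5 and held by ATG16L1, then directs the attachment of ATG8 proteins to phosphatidylethanolamine, and receptors such as p62 tie cargo to the lipid-bound ATG8. In T cells the pathway is known for limiting the content of mitochondria and endoplasmic reticulum and for its part in survival after activation. Much of its control acts on proteins, through phosphorylation and lipid conjugation, which RNA counts do not measure.

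The ATG8 proteins are the members that end up bound to the membrane, and the ends of their reading frames are shown because the ATG4 proteases act there. ATG4 cuts after a glycine near the C terminus, which is then joined to the lipid. Below are the last bases of each coding sequence, 5′ to 3′, in the principal transcript of GENCODE M21 (mm10), with the last glycine codon of the frame in capitals and the stop codon as the last 3 bases.
Map1lc3a: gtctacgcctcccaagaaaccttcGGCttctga
Map1lc3b: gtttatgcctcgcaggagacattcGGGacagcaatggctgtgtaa
Gabarap: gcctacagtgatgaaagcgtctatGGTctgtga
Gabarapl1: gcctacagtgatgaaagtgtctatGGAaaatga
Gabarapl2: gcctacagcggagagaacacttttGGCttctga
The glycine is codon 120 in Map1lc3a and Map1lc3b and codon 116 in the 3 GABARAP genes. A single codon follows it in 4 of the 5 genes, for phenylalanine in Map1lc3a and Gabarapl2, leucine in Gabarap and lysine in Gabarapl1. Map1lc3b has 5 codons after it, so that its product carries the longest tail to be cut off. Over aligned coding bases, Map1lc3a and Map1lc3b were 76.5% identical, Gabarap and Gabarapl1 74.9%, and the LC3 genes differed most from the GABARAP genes, at 51.4% to 57.4% identity. The genes lie at chr2:155276297-155278073 (Map1lc3a), chr8:121590361-121598760 (Map1lc3b), chr11:69991143-69994951 (Gabarap), chr6:129533160-129542346 (Gabarapl1) and chr8:111940703-111953612 (Gabarapl2), all on the plus strand of mm10.

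The libraries held 19332509 to 48558772 counts in total and 31697 to 78037 counts in the autophagy genes. Of the labelled cell type's markers, all 5 Th17 genes (Il17a, Il17f, Il23r, Ccr6, Rora) and all 4 general T cell genes had a mean above 1 TPM (a count scaled by gene length and library total). Of the 5 Th17 genes, only Il17f was called in the variation test described below, at 557, 391, 501 and 521 TPM in replicates 1 to 4. The 16 markers of B cells, macrophages, neutrophils, CD8 T cells and NK cells were all under 1 TPM, the highest at 0.337, and 8 of them had no count. The libraries did not match in sex-linked RNA: the Y-linked Ddx3y stood at 77.8, 58.9, 0.240 and 0.0925 TPM in replicates 1 to 4, and Xist at 0.916, 1.01, 154 and 152 TPM, although 1 donor entry is given. Values are therefore printed by library for the genes the results turn on. The labels do not say whether the replicates came from separate animals or cultures, so p-values measure the spread between these libraries, which may be technical. Each library is a bulk sample, in which fewer cells with a transcript and less of it per cell cannot be told apart.

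Th17 cells held RNA of nearly the whole machinery at moderate levels. Against 1 TPM, 37 of the 38 genes were higher and 1, Wipi1, was lower (edgeR's quasi-likelihood test, Benjamini-Hochberg adjusted p under 0.05 over all protein-coding genes). In the background, 45.9% of protein-coding genes were called above 1 TPM and 51.5% below. The same 37 genes were over 1 TPM in every one of the 4 libraries, and Wipi1 was under it in every one. TPM divides each count by the length of the gene's merged exons, so that levels of different genes can be compared. By mean TPM, 20 genes were over 20, 9 were over 50, and 5 lay between 1 and 5. The median gene of the set stood at 20.5 ± 0.551 TPM (SD, n = 4). The median over all protein-coding genes was 0.411 TPM, and over those called above 1 TPM it was 32.5 TPM, which 11 of the 38 exceeded. Together the 38 genes took 1115 ± 6.46 TPM (SD, n = 4), or 0.111% of the total.

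**Figure D1:**
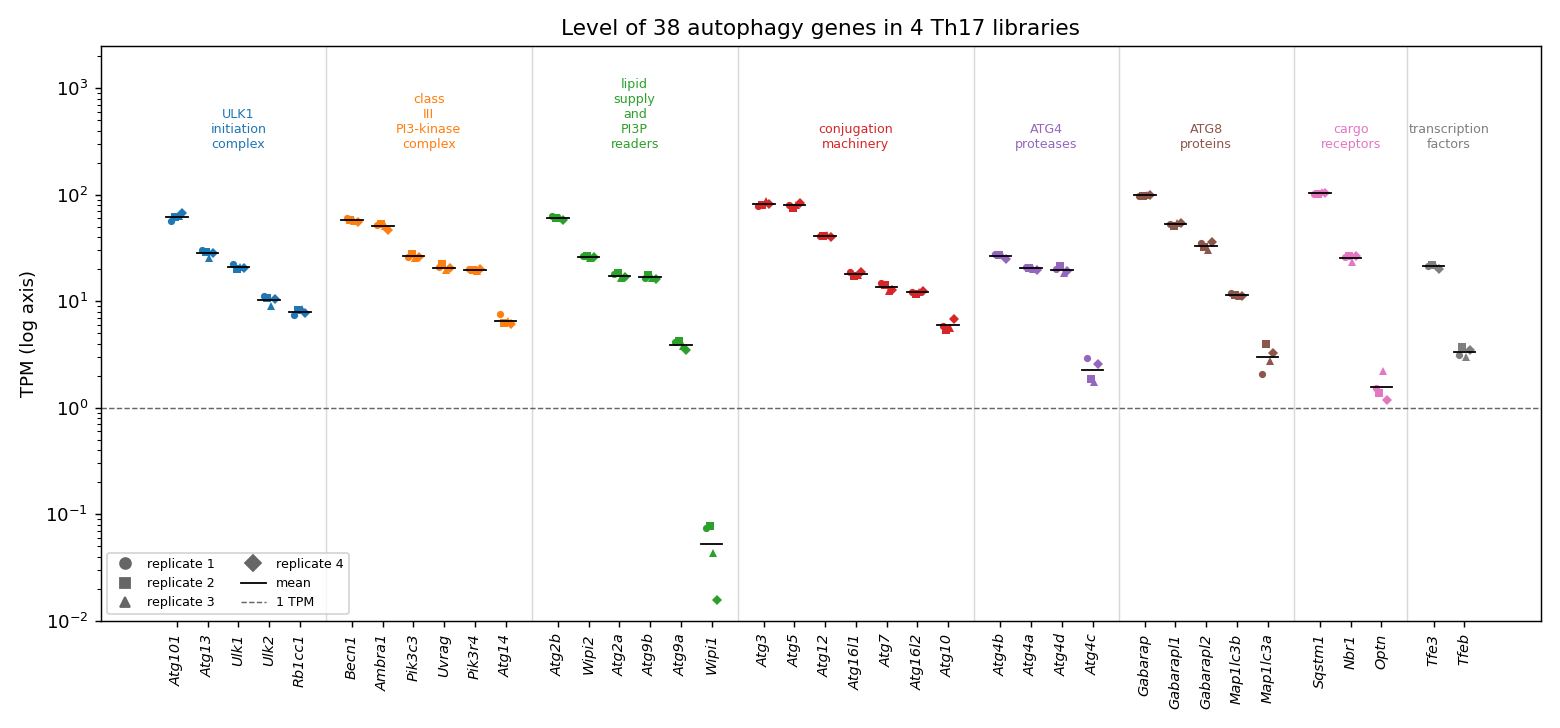
TPM on a log axis of the 38 autophagy genes, grouped by role and ordered by mean within it. Symbols are the 4 libraries, black bars the mean and the dashed line 1 TPM; Sqstm1 is highest at a mean of 103, and Wipi1 is the only gene under the line.

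In the initiation complex, Atg101 and Atg13 exceeded the kinases they bind. Atg101, which steadies ATG13, stood at 57.1, 61.8, 63.4 and 68.0 TPM in replicates 1 to 4. Atg13, the regulatory subunit, had 28.4 ± 2.23 TPM (SD, n = 4). Rb1cc1, which encodes the scaffold FIP200, had 8.01 ± 0.452 TPM (SD, n = 4). The kinase gene Ulk1 measured 22.64, 20.11, 21.05 and 20.69 TPM, and its paralogue Ulk2 11.2, 10.7, 8.97 and 10.6 TPM. Every Ulk1 value exceeded every Ulk2 value, with a mean within-library ratio of 2.05. Which gene of the complex was lowest turned with the length used: Rb1cc1 with merged exon lengths, and Ulk2 with principal transcript lengths (7.43 TPM against 10.7 TPM for Rb1cc1).

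Differences between 27 pairs of paralogues or alternative partners were computed inside single libraries, as log2(TPM + 1) of the first gene minus that of the second, a scale that understates differences of genes near 0. They were tested with an exact two-sided sign-flip permutation test. With 4 libraries this test cannot give a p below 0.125 (0.13 after adjustment over the 27 pairs), so no pair could pass 0.05. For Ulk1 and Ulk2 the difference was 0.96 ± 0.13 (SD, n = 4) and had the same sign in 4 of 4 libraries. In 26 of the 27 pairs the sign was the same in all libraries, and those 26 reached the smallest p that the test allows. That share was not computed for other pairs of genes, and many of the 27 pairs have a gene in common. The count therefore describes these pairs and does not set them apart from others.

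Among the PI3-kinase complexes, Becn1 and Ambra1 exceeded the gene of the catalytic subunit. Becn1, encoding Beclin 1, stood at 60.6, 57.6, 57.1 and 55.7 TPM, and Ambra1, which binds Beclin 1 and couples it to ULK1, at 52.0, 53.6, 50.5 and 47.0 TPM. Pik3c3, the VPS34 lipid kinase, had 26.4 ± 1.06 TPM and Pik3r4, its VPS15 partner, 19.8 ± 0.307 TPM (SD, n = 4 each). Atg14 and Uvrag encode alternative subunits, the first for the autophagosome-forming complex and the second for the endosomal one. Atg14 measured 7.61, 6.26, 6.46 and 6.07 TPM and Uvrag 20.9, 22.2, 19.5 and 20.3 TPM. Uvrag was higher in all 4 libraries, 3.16-fold on average, and the log2 difference of Atg14 minus Uvrag was -1.52 ± 0.15 (SD, n = 4). When levels were computed from the length of the principal transcript in place of the merged exons, Atg14 was 4.21 TPM and that difference -2.32.

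In ratio of highest to lowest, lipid supply and PI3P reading spread most widely of the 8 roles, from 0.0530 to 60.7 TPM. This width rests on Wipi1, which held 9 counts in all. Above Wipi1 the lowest gene of the role was Atg9a, at 3.91 TPM. From there the spread was narrower than that of the cargo receptors (1.58 to 103 TPM) and the ATG8 genes (3.01 to 98.7 TPM). In each pair of the role a single paralogue carried most of the counted RNA. Of the lipid channel proteins, Atg2b (63.2, 60.6, 60.8 and 58.0 TPM) exceeded Atg2a (18.0, 18.4, 16.4 and 17.0 TPM) in every library, 3.48-fold on average. Their log2 difference, Atg2a minus Atg2b, was -1.74 ± 0.07 (SD, n = 4). Of the lipid scramblases, Atg9b (16.5, 17.5, 16.7 and 16.3 TPM) exceeded Atg9a (4.19, 4.20, 3.79 and 3.47 TPM), 4.30-fold on average, with a log2 difference of -1.85 ± 0.08 (SD, n = 4) for Atg9a minus Atg9b. A limit touches Atg9a: 31.8% of its exon bases are overlapped on the same strand by Gm29253, which had 0 TPM. The counting program leaves out fragments that fit both genes, and their number is not recorded with the counts. Atg9a may therefore be understated by an unknown amount, and the lead of Atg9b overstated. The 0 TPM of Gm29253 does not measure the fragments left out.

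Wipi1 and Wipi2 encode PI3P-binding propellers, of which WIPI2 brings ATG16L1 to the membrane. Wipi1, at chr11:109573331-109611967 on the minus strand, had 4, 2, 2 and 1 counts in replicates 1 to 4, a mean of 0.0530 ± 0.0294 TPM (SD, n = 4), below 1 TPM with an adjusted p of 9.48e-10 in edgeR's quasi-likelihood test. At the 9 counts it held in all, its level is poorly fixed, and 3 counts over the 4 libraries would equal 0.0158 TPM. Wipi2 stood at 26.4, 26.8, 25.4 and 25.9 TPM, all far above. Its merged exons are 5.38 times as long as its principal transcript, the largest such ratio in the set, and with the principal transcript's length its mean was 96.8 TPM, second only to Sqstm1.

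In the conjugation machinery, RNA of Atg5 and of the ATG8-conjugating enzyme was abundant, and that of the ATG12-conjugating enzyme was not. Atg3, the E2-like enzyme that hands ATG8 to lipid, measured 79.1, 80.8, 87.1 and 82.5 TPM. Atg10, the E2-like enzyme for ATG12, measured 5.87, 5.37, 5.61 and 6.87 TPM. The difference of Atg3 minus Atg10 was 3.59 ± 0.15 on the log2 scale (SD, n = 4), the mean within-library ratio of TPM was 14.01, and the values did not overlap. Atg7, the E1-like enzyme that feeds both, lay between them at 13.6 ± 1.03 TPM (SD, n = 4).

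Atg5 stood at 79.5, 75.4, 80.3 and 83.3 TPM and Atg12 at 41.1, 40.9, 42.1 and 39.7 TPM. The level of Atg12 rests on the gene model: the principal transcript of the later annotation is longer than the merged exons of the deposited tables (ratio 0.523), and with it the mean was 14.8 TPM. This second value may be understated, since reads outside the merged exons were not counted. Atg16l1, which places the conjugate on the membrane, had 18.7, 17.3, 17.5 and 18.9 TPM, and its paralogue Atg16l2 12.2, 11.7, 12.3 and 12.6 TPM. The lowest Atg16l1 value exceeded the highest of Atg16l2, and the log2 difference was 0.53 ± 0.04 (SD, n = 4). With principal transcript lengths Atg16l1 was at 38.3 TPM and the difference was 1.71.

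Of the ATG4 proteases, which prime ATG8 proteins and take them off the membrane again, Atg4b took the largest share, 38.8% ± 0.955 of the summed TPM of the 4 genes (SD, n = 4). Atg4b measured 28.03, 27.47, 26.97 and 25.04 TPM, above every value of Atg4a (21.1, 20.4, 20.3 and 19.7 TPM) and of Atg4d (20.004, 21.36, 18.45 and 19.12 TPM). Atg4a and Atg4d did not differ beyond their spread: their log2 difference was 0.05 ± 0.08 (SD, n = 4), positive in 3 of 4 libraries, with an exact permutation p of 0.375. Atg4c was far lower, at 2.92, 1.86, 1.75 and 2.60 TPM, with no overlap with the other three. Of the 50-base words in Atg4a transcripts, 51.2% also occur in the pseudogene Atg4a-ps (0.926 TPM). Multi-mapping reads were not counted, so the level of Atg4a is uncertain and may be understated. Its order against Atg4b and Atg4d, and the share of Atg4b, are uncertain for the same reason. For Atg4d, 19.3% of exon bases lie opposite Kri1 (106 TPM), and the counting kept the strands apart.

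The GABARAP genes carried most ATG8 RNA, with 92.8% ± 0.403 of the summed TPM of the family (SD, n = 4) and 92.2% to 93.0% in the single libraries. Gabarap led with 98.5, 97.1, 100.4 and 98.8 TPM, followed by Gabarapl1 with 53.6, 51.0, 54.9 and 54.9 TPM and Gabarapl2 with 35.1, 32.0, 30.1 and 36.2 TPM. Map1lc3b, whose product is the LC3B protein used as the standard autophagosome marker, stood at 12.1, 11.4, 11.2 and 11.2 TPM, and Map1lc3a at 2.09, 3.95, 2.77 and 3.26 TPM. The 5 genes kept this order in every library and no 2 neighbours overlapped.

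As shares of the family, Gabarap took 49.3%, Gabarapl1 26.8%, Gabarapl2 16.6%, Map1lc3b 5.73% and Map1lc3a 1.51%. The difference of Map1lc3b minus Gabarap was -3.0003 ± 0.06 on the log2 scale (SD, n = 4), and Gabarap was 8.62-fold higher. This gap depends in part on the length used, since the merged exons of Map1lc3b are 2.97 times as long as its principal transcript. With principal transcript lengths Map1lc3b had 23.5 TPM, its difference from Gabarap was -1.94 and that from Gabarapl2 moved from -1.46 to -0.42, while the GABARAP share was 86.6%. Map1lc3a rests on 147 counts over the 4 libraries, so its 1.89-fold range between libraries is measured with low precision. Of the words of Gabarapl2, 12.2% occur in other genes.

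**Figure D2:**
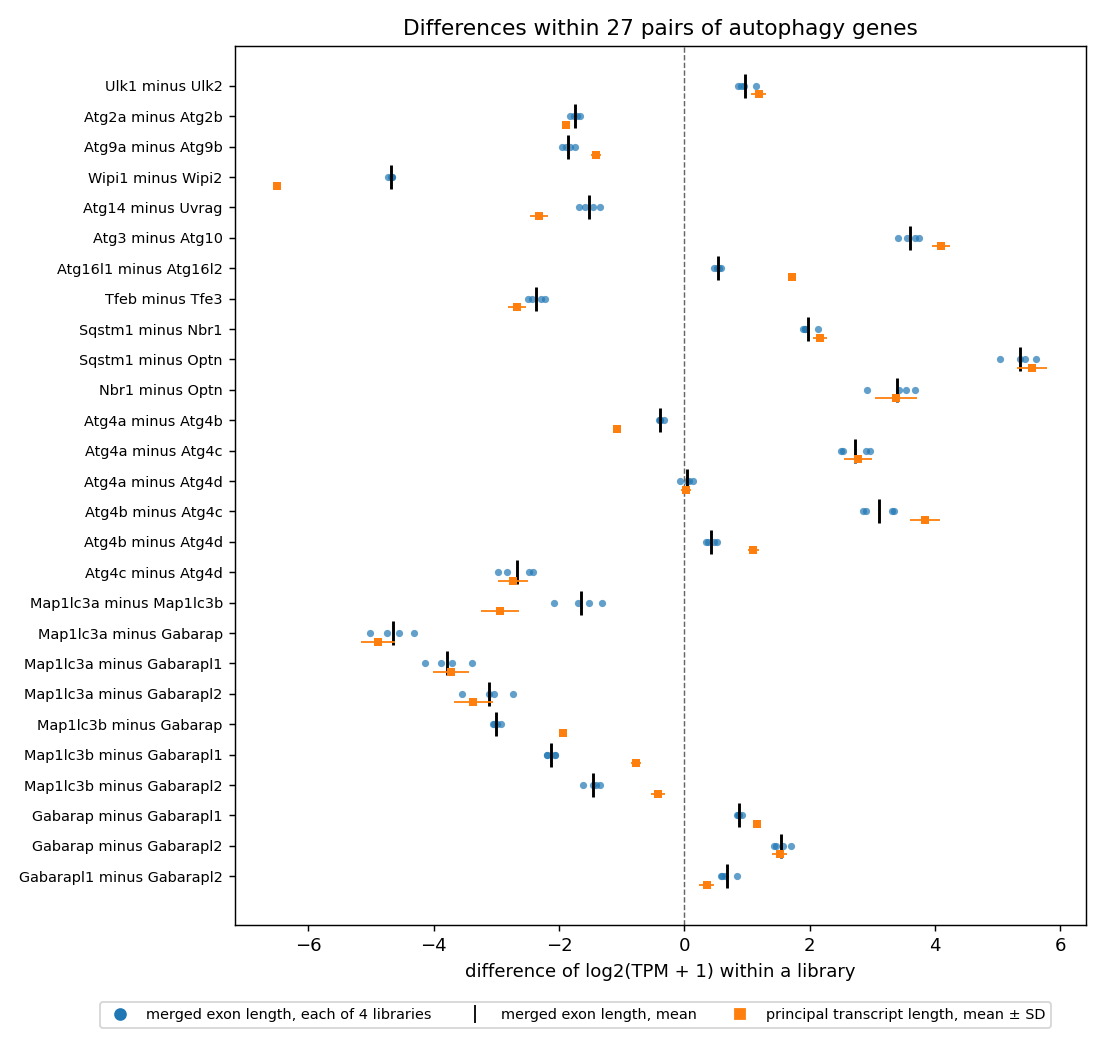
Within-library differences of log2(TPM + 1), first gene minus second, for 27 pairs. Blue points are the 4 libraries with the deposited merged exon lengths, black bars their mean, and orange squares the mean ± SD with principal transcript lengths; Atg4a minus Atg4d is the only pair whose points lie on both sides of 0, and no mean changed sign with the length used.

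Among the cargo receptors, Sqstm1 was the highest of all 38 genes. Sqstm1 encodes p62, which binds ubiquitin and ATG8 proteins and is itself degraded with its cargo. At chr11:50199366-50210827 on the minus strand, it measured 102.1, 101.5, 105.3 and 104.9 TPM, a mean of 103 ± 1.91 (SD, n = 4), and ranked 1985 among the protein-coding genes. Nbr1, a receptor built on the same plan, had 26.3, 26.6, 23.2 and 26.8 TPM. Optn, encoding optineurin, a receptor for damaged mitochondria and bacteria, was low at 1.53, 1.38, 2.23 and 1.17 TPM.

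The Optn level passed 1 TPM with an adjusted p of 2.43e-05 in edgeR's quasi-likelihood test, on 251 counts in all, and was called below when 2 TPM was the level tested. Sqstm1 exceeded Nbr1 in every library, with a log2 difference of 1.97 ± 0.11 (SD, n = 4), and exceeded Optn by 5.36 ± 0.24 (SD, n = 4). The order Sqstm1, Nbr1, Optn was the same in all 4 libraries with no overlap. For Sqstm1, 17.3% of exon bases lie opposite Mrnip (7.02 TPM), again on the other strand.

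Of the transcription factors that bind CLEAR elements in lysosome and autophagy genes, Tfe3 exceeded Tfeb. Tfe3 stood at 21.31, 21.98, 21.77 and 20.07 TPM and Tfeb at 3.11, 3.72, 3.02 and 3.49 TPM. Tfe3 was 6.43-fold higher on average, and the log2 difference of Tfeb minus Tfe3 was -2.36 ± 0.13 (SD, n = 4). Both were higher with principal transcript lengths, at 41.5 TPM for Tfe3 and 5.67 TPM for Tfeb, and Tfe3 was the higher in all 4 libraries under either length. Over the whole set, principal transcript lengths moved the TPM of 7 genes by more than 1.5-fold. Wipi2, Atg16l1, Map1lc3b, Tfe3 and Tfeb were higher, and Atg12 and Atg14 lower. These moves include a rescaling of all genes, since the lengths behind the TPM total change too. Atg5, with 2352 bases under both lengths, fell from 79.6 to 54.9 TPM. The length of Atg14 itself changed only from 3450 to 3729 bases. By length alone, 14 genes had merged exons over 1.5 times as long as the principal transcript.

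The core of the CLEAR element is the letters CACGTG, a palindrome that reads the same on both strands. Promoter windows from RefSeq (GRCm38.p6), each running from 250 bases before to 50 bases after a start site, were held for 32 of the 38 genes, with more than 1 window for some. The letters occurred in 4 of the 32 (12.5%), namely Atg14, Atg7, Atg3 and Atg5. Of all protein-coding genes with a window, 9.18% held them. The stretches around the match are shown for the 3 genes in which it lies wholly before the start site, with the CACGTG letters in capitals, on the plus strand and 5′ to 3′. They are given to show where in each promoter window the letters sit. The Atg7 window surrounds a start site inside the gene as counted, which begins at chr6:114643097. The printed stretch touches none of the counted exons of Atg7. All 3 genes encode conjugation proteins, but Atg10 and Atg16l2 of that role had a window without the letters. No window was held for Atg12 and Atg16l1.
Atg7, chr6:114670942-114670991: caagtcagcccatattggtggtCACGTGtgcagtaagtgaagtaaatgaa
Atg3, chr16:45158713-45158785: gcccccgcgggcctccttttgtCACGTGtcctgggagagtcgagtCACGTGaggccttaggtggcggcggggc
Atg5, chr10:44268303-44268338: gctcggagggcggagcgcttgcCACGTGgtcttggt
The match of Atg5 ends 8 bases before the start site, those of Atg3 88 and 65 bases before it, and that of Atg7 126 bases before it, and the match of Atg14 spans its start site. The 4 genes with the letters had levels of 6.60 to 82.4 TPM (median 46.6), and the 28 without them 0.0530 to 103 TPM (median 20.6). The ranges overlap widely, and no binding of any factor was measured in these libraries.

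Between the 4 libraries the autophagy genes varied about as much as the other genes tested. In the test for variation beyond what genes of like count show (deviance from a constant level, with the trended dispersion of edgeR, adjusted over the 11171 genes that averaged 10 or more counts), 0 of the 37 autophagy genes tested were called. Wipi1 had too few counts to be tested. In the background 0.501% of genes were called, so few calls would occur in a set of this size at that rate. At an unadjusted p under 0.05, 0 of the 37 passed, against 5.28% of all genes tested. The smallest unadjusted p among them was 0.11.

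The coefficient of variation of TPM (SD over mean) had a median of 5.13% over the 37 genes and of 5.46% over all genes tested, and 20 of the 37 lay under the latter. It was lowest for Gabarap (1.39%), Pik3r4 (1.55%) and Sqstm1 (1.85%). It exceeded 20% in Optn (29.0%), Map1lc3a (26.1%) and Atg4c (24.9%), which hold the fewest counts of the 37. The largest range between libraries among the genes tested was 1.90-fold, in Optn, whose replicate 3 was highest. Genes on the X chromosome need a separate word because of the difference in Xist: Tfe3 differed by at most 1.10-fold between libraries, and Atg4a, whose 4 values are given above, by less.

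**Figure D3:**
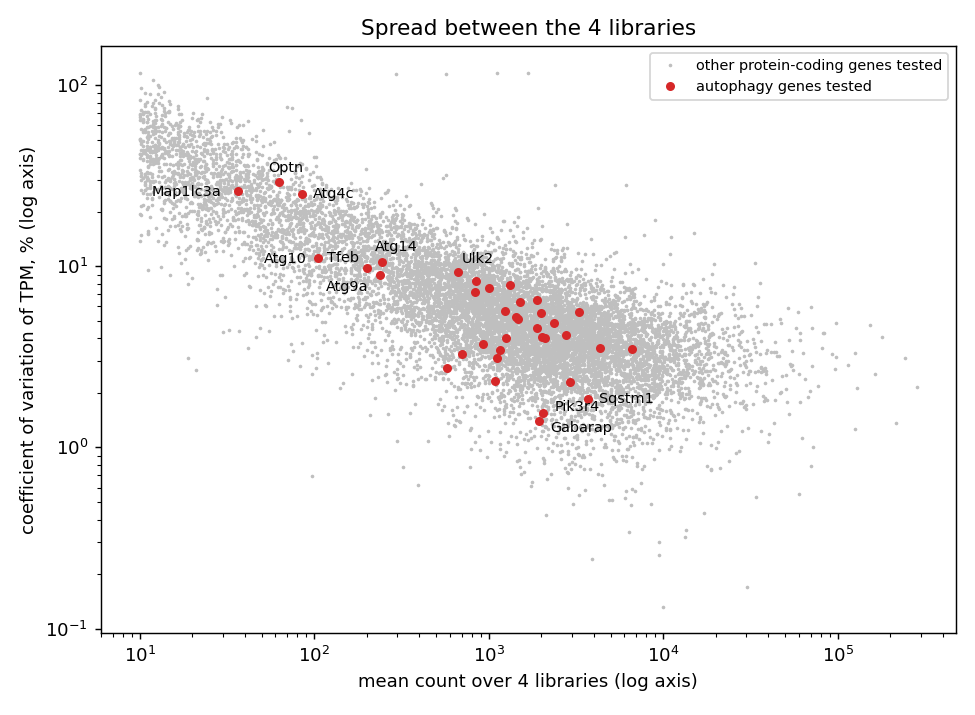
Coefficient of variation of TPM over the 4 libraries (percent, log axis) against mean count (log axis) for the 11171 protein-coding genes tested. The 37 autophagy genes in red lie within the cloud of other genes; Optn, Map1lc3a and Atg4c are over 20%, and Gabarap, Pik3r4 and Sqstm1 under 2%.

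Genes that act beside this machinery were described from 6 further lists with 70 genes in all. Of these, 65 were called above 1 TPM, 4 below and 1 on neither side (the same edgeR test). In the background, 45.9% of protein-coding genes were above and 51.5% below. In the variation test 0 were called, against 0.501% of genes in the background, and Wdfy3 and Tfec had too few counts to be tested. The median of the 70 was 32.6 TPM, against 20.6 TPM over the means of the 38 autophagy genes.

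Of the 9 other phagophore genes, all were above 1 TPM. Ei24 (123 ± 4.48 TPM) and Vmp1 (96.2 ± 2.77 TPM, SD, n = 4 each), the latter a lipid scramblase of the endoplasmic reticulum, were the highest. Wdr45, which encodes the PI3P reader WIPI4, was the lowest at 3.77 ± 0.732 TPM (SD, n = 4), still above Wipi1 in every library.

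Of the 13 other cargo receptors, 11 were above 1 TPM and 2 below. The endoplasmic reticulum receptors Rtn3 (89.2 ± 2.15 TPM) and Sec62 (75.4 ± 0.666 TPM, SD, n = 4 each) were the highest. With principal transcript lengths Sec62 was at 56.9 TPM and Tax1bp1, a ubiquitin-binding receptor, took its place with 92.9 TPM, against 44.3 TPM with merged exon lengths. Wdfy3, the ALFY adaptor for protein aggregates, had 0.0209 ± 0.0125 TPM on 14 counts in all. Ccpg1, a receptor for endoplasmic reticulum, had 0.462 ± 0.0923 TPM (SD, n = 4), and 0.758 TPM with principal transcript lengths.

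All 13 genes of autophagosome fusion were above 1 TPM. The GTPase gene Rab7 (262 ± 7.63 TPM) and the SNARE gene Ykt6 (183 ± 5.88 TPM, SD, n = 4 each) led them, and Tecpr1, a tethering factor, was the lowest at 7.14 ± 0.303 TPM. With principal transcript lengths Tecpr1 was at 12.3 TPM, and Stx17 was the lowest at 7.62 TPM. The SNARE gene Stx17, named after its values were seen because its product is the best known SNARE of the autophagosome, had 10.7 ± 0.765 TPM (SD, n = 4), below Ykt6 in every library.

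All 17 lysosome genes were above 1 TPM, led by the membrane glycoprotein gene Lamp1 (264 ± 5.83 TPM) and Psap (176 ± 1.56 TPM, SD, n = 4 each), which encodes the precursor of saposins. The lowest was the protease gene Ctsl at 5.49 ± 1.09 TPM (SD, n = 4), and its mean was 1.21 TPM with principal transcript lengths. The second value divides counts from 1971 merged exon bases by the 6168 bases of a transcript of the later annotation. Reads outside the merged exons were not counted, so this second value may be understated.

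Of 13 nutrient sensing genes, 12 were above 1 TPM. Rraga (154 ± 3.88 TPM), a Rag GTPase, and Lamtor1 (86.6 ± 3.99 TPM, SD, n = 4 each), its anchor on the lysosome, were the highest. Their order turned with principal transcript lengths, which gave 172 TPM for Lamtor1 and 106.1 TPM for Rraga. Prkaa2, which encodes the AMPK catalytic subunit α2, was below at 0.709 ± 0.107 TPM (SD, n = 4).

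Among 5 further transcription factors linked to autophagy, Foxo1 (47.2 ± 3.54 TPM) and Foxo3 (43.0 ± 1.68 TPM, SD, n = 4 each) were the highest. Both exceeded Tfe3 with merged exon lengths, and both were below it with principal transcript lengths (32.5 TPM for Foxo1, 32.8 TPM for Foxo3 and 41.5 TPM for Tfe3). Of the relatives of Tfeb and Tfe3, Mitf was on neither side of 1 TPM at 1.11 ± 0.207 TPM (SD, n = 4). Tfec had 0 counts in every library, where 3 counts over the 4 libraries would equal 0.0125 TPM.

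**Figure D4:**
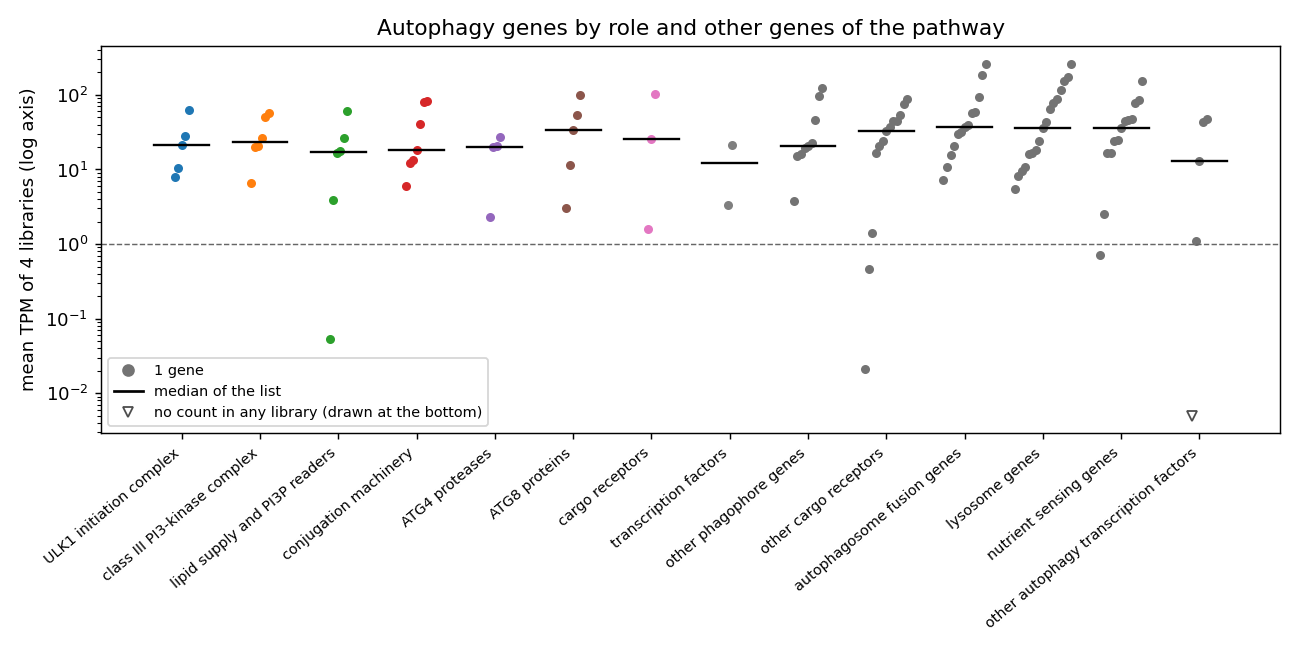
Mean TPM over the 4 libraries (log axis) of each autophagy gene by role (colours, and grey for the transcription factors) and of 70 other pathway genes in 6 lists (grey), with the median of each list as a black bar and 1 TPM dashed. The open triangle is Tfec, which had no count; Rab7 and Lamp1 are the highest points and Wipi1 and Wdfy3 the lowest with counts.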

How the data were processed

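RNA-seq of 4 Th17 libraries was analysed from the authors' deposited gene counts. Per the file headers, the program featureCounts (1.4.6-p4) counted read pairs in exons of the GENCODE M13 annotation (mm10), reverse-stranded, with both ends mapped, and multi-mapping reads were not counted. The output names in the headers refer to STAR and to 24 hours, a time absent from the labels. Total RNA-seq is the labelled assay, while the linked protocol is named for poly(A) RNA.

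Symbols came from GENCODE M21 (50376 of 50600 genes matched), and TPM was computed over all genes from the deposited counts and merged exon lengths. Tests used edgeR 4.0.16 in R 4.3.3. The level test was two-sided, with an offset for 1 TPM. The variation test was one-sided with TMM normalization. Both were checked on simulated counts. Alternatives used DESeq2 1.42.0, limma 3.58.1, other levels, filters, pseudocounts of 0.1 and 0.01, TPM denominators and each library left out. Principal transcript length was an alternative added after seeing the data. Coding identity was taken from Biopython 1.88 alignments.

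The members and lists were chosen with earlier results of these data known. All 38 genes are named, and of each other list the 2 highest, the lowest and any gene not above 1 TPM; Stx17 and Tax1bp1 were named after their values were seen. Pairs of libraries were compared to check that none was a duplicate of another. Counts differed by more than sampling noise in every pair (chi-square per degree of freedom 4.36 to 11.4), so all 4 were kept. Limits set from 3 counts cover counting error only.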

Additional observations from a re-analysis of the deposited data

Results flagged for a closer look

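Nbr1 in replicate 3, at 23.2 TPM, lay further from the other three libraries (26.3 to 26.8 TPM) than Dixon's 95% critical value for 4 samples allows. It was the only one of the 38 autophagy genes with such a library, where chance gives about 1 in 20 groups, and Nbr1 was not called in the variation test.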

How the results depend on the processing

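At a tested level of 2 TPM, 2 autophagy genes were below and 1 on neither side: Optn turned to below (log2 level against 2 TPM -0.36, adjusted p = 0.030) and Atg4c lost its call (0.25, adjusted p = 0.098). With a filter of a mean of at least 10 counts, 0 were below, since Wipi1 was not tested. All 38 level calls were the same with DESeq2, limma-voom, a level of 0.5 TPM, the other denominator, principal transcript length and each library left out. The GABARAP share of ATG8 RNA was 86.6% with principal transcript lengths and 80.4% from counts scaled to the library total without length, and the Atg4b share 51.0% and 52.0%. The summed level was 1176 TPM over protein-coding genes without mitochondrial ones, 1155 TPM with principal transcript lengths and 1618 CPM without length, and the median gene 21.6, 23.6 and 34.6. No pair changed the sign of its mean under the alternatives run for pairs, which did not include counts without length. Total counts without length turned the order of Map1lc3b (3702) and Gabarapl2 (3376), and of Atg4a (2325) and Atg4d (6086). They kept the order of the other pairs. The variation test called 0 autophagy genes under every setting, also at the common dispersion (249 of 11171 genes). No paired analysis was possible because there is 1 group. Depth limits Wipi1, Map1lc3a, Optn and Atg4c.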
